A study of Mus musculus with 6 samples.

Results

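The genes described are 10 imprinted genes that are known to be expressed together with H19 in a network: Igf2r, Cdkn1c, Dlk1, Meg3, Peg3, Mest, Plagl1, Grb10, Slc38a4 and Gnas. They were chosen by name, as every probe set whose annotated gene symbol is, or contains, one of these names. This gave 10 probe sets, 1 for each gene, among 23410 annotated probe sets and 35556 in all. For 9 genes the probe set has a single symbol. The Gnas probe set is also listed under Gnasas1, the antisense transcript of the same locus, so the signal of the 2 transcripts cannot be told apart.

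RNA came from C2C12, an established line of mouse myoblasts whose cells fuse into myotubes in low serum. One group of 3 arrays held RNA of cells given an siRNA against mouse H19, and the other group of 3 held RNA of cells given a control siRNA. Both groups were otherwise wild type, were put into differentiation medium with horse serum, were transfected on day 1 of differentiation and were collected 40 h later. The knockdown was transient, the labels name 1 siRNA reagent per group, and the triplicates are not said to be separate cultures. The p-values therefore rest on the spread among these 6 samples, and that spread may be purely technical.

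Imprinted genes are transcribed mainly from the copy inherited from one parent, and many of them set the growth of the embryo and of muscle. H19 is a noncoding RNA made from the maternal chromosome, next to the paternally expressed growth factor gene Igf2. Several imprinted genes are expressed in parallel across tissues, and in mice that lack H19 some of them were found at higher levels. In mouse embryonic fibroblasts H19 RNA has been reported to bind the methyl-CpG protein MBD1 and to act on Igf2, Slc38a4 and Mest.

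The microRNAs hosted by H19 and Mest are shown because the target was read through the Mir675 probe set, and because Mir335 has a probe set of its own within Mest, the network gene with the widest difference. Sequences are RefSeq mature forms on build GRCm38.p6, with the seed (bases 2 to 8) in capitals. Values given for microRNA genes are those of probe sets, and whether these read mature forms was not tested. Mir675 lies within H19 on chromosome 7 (minus strand) and Mir335 within Mest on chromosome 6 (plus strand), and no seed is shared among these.
miR-675-5p: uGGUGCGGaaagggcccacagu
miR-675-3p: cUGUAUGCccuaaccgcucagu
miR-335-5p: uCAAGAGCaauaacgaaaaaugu
miR-335-3p: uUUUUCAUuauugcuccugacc

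No probe set was listed under H19, so the siRNA target was followed through the one annotated with both Mir675 and Supt6. It read 10.38, 10.28 and 10.37 on the H19 siRNA arrays, against 12.21, 12.22 and 12.27 on the control siRNA arrays, in log2 expression units. All 3 H19 siRNA arrays lay far below the control arrays. The signal fell by 1.89 on the log2 scale (SE 0.041) and was 26.9% of that in control siRNA cells. In limma, a linear model fitted to all annotated probe sets, the adjusted p was 2.11e-05. Supt6 has a further probe set, which differed by -0.063 (95% interval -0.15 to 0.023).

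Against this fall of the target, the 10 network genes differed little. In limma 0 of the 10 passed an adjusted p of 0.05, where 43 of 23410 annotated probe sets passed (0.184%). Without adjustment 3 of the 10 had a p under 0.05, all higher with H19 siRNA, where 6.39% of annotated probe sets were higher and 4.26% lower at that level. Of the 10 genes 9 had a positive difference, where 57.5% of annotated probe sets did, and the median of the 10 was 0.073 on the log2 scale against 0.013 over all annotated probe sets. For 6 genes (Mest, Dlk1, Cdkn1c, Igf2r, Plagl1 and Gnas) every H19 siRNA array read above every control siRNA array, and for 0 genes every array read below. Upward, the same held for 10.4% of annotated probe sets, and downward for 7.10%. Among probe sets above the median level, where 5 of the 6 genes lie, that share was 12.3%. Seen from its size, no network gene was more than 14.4% higher, and the highest upper bound of a 95% interval among them was 22.4% (Dlk1).

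**Figure D1:**
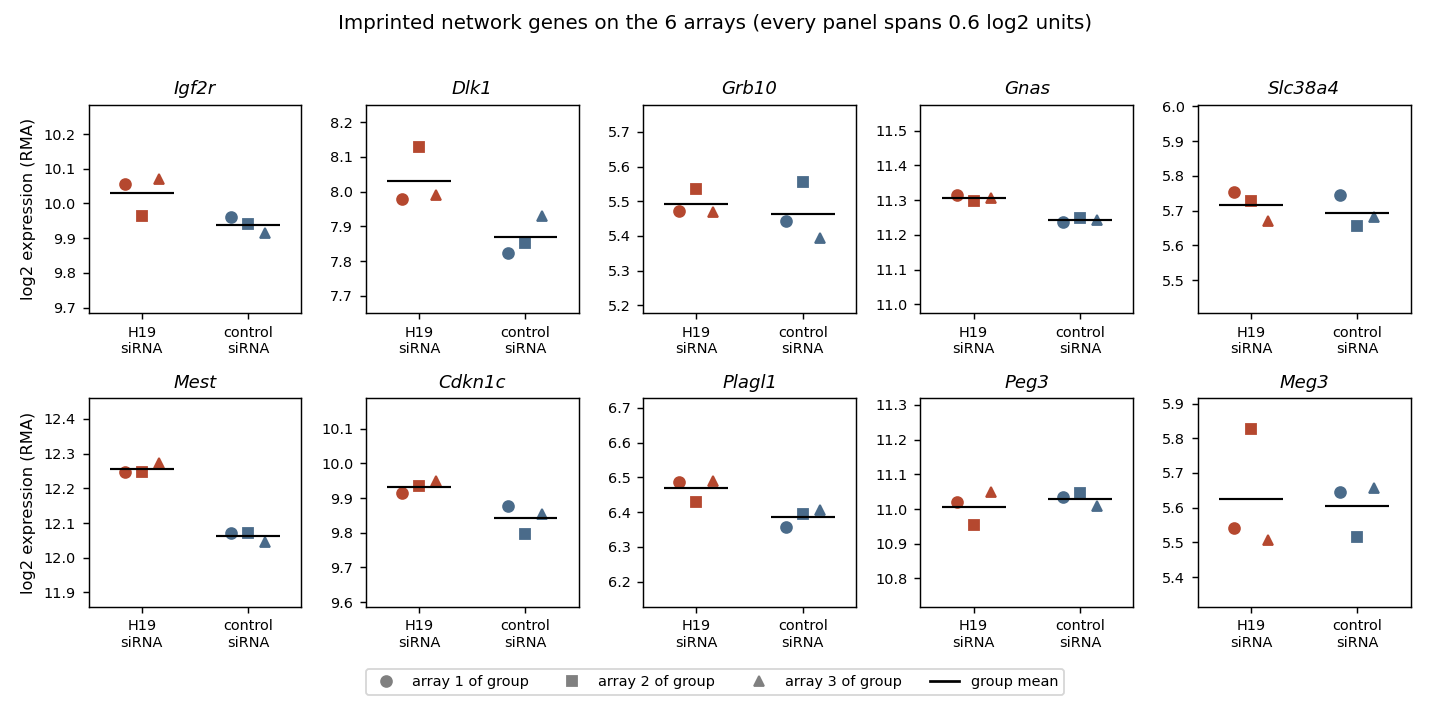
Log2 expression (RMA values) of the 10 network genes on each array, H19 siRNA left and control siRNA right, with 1 marker per array and a line at the group mean; every panel spans the same range. The groups are apart for Mest, Dlk1, Cdkn1c, Igf2r, Plagl1 and Gnas and overlap for the other 4 genes.

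Mest (chr6:30733506-30748466 in GRCm38.p6), an enzyme-like protein of the alpha/beta hydrolase family made from the paternal chromosome, had the widest difference of the 10. Its probe set read 12.25, 12.25 and 12.27 on the H19 siRNA arrays, against 12.07, 12.07 and 12.05 on the control siRNA arrays. The spread within each group was small (SD 0.015 and 0.014, n = 3 each) beside a gap of 0.19 between the groups. The difference was 0.19 (SE 0.032, 95% interval 0.12 to 0.27), or 14.4% higher with H19 siRNA, and its limma adjusted p of 0.104 missed the threshold. By unadjusted p (0.000515) the gene stood at rank 114 of 23410. Mest passed in 3 of 16 alternatives. Its adjusted p was 0.000291 when the variance was allowed to follow intensity and was also estimated robustly, 0.0145 among probe sets above the median level and 0.0474 among those above the 30th percentile, and it reached 0.444 with the replicate number as a block. In each of the 3 it was the only network gene past the threshold, where 1.74%, 2.31% and 0.622% of the probe sets tested passed, in the order just given. Its difference stayed between 0.18 and 0.20 in all 16 alternatives.

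Slc38a4 (chr15:96994816-97055956), an amino acid transporter of the system A family that is paternally expressed, gave 5.75, 5.73 and 5.67 with H19 siRNA, against 5.74, 5.66 and 5.68 with control siRNA. The groups overlapped, and the difference of 0.022 had a 95% interval from -0.074 to 0.12 (limma adjusted p = 0.879). Igf2, the third gene named above as a target of H19 in fibroblasts, read 8.69, 8.64 and 8.65 with H19 siRNA, against 8.68, 8.60 and 8.63 with control siRNA, also with overlapping groups.

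A pair of start regions of Mest is shown, since the gene led the network and its transcripts begin at separate places. Each line holds 250 bases before and 50 after a RefSeq start site on build GRCm38.p6, plus strand, the first at chr6:30733256-30733555 and the second at chr6:30737800-30738099. Capitals mark the letters CAGCTG, an E-box form bound by MyoD.
Mest upstream start: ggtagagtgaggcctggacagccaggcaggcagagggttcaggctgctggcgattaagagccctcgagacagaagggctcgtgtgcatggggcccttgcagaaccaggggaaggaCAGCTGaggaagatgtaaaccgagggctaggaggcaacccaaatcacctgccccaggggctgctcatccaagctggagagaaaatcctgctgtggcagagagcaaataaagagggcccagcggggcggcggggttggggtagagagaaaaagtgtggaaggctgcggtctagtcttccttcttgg
Mest downstream start: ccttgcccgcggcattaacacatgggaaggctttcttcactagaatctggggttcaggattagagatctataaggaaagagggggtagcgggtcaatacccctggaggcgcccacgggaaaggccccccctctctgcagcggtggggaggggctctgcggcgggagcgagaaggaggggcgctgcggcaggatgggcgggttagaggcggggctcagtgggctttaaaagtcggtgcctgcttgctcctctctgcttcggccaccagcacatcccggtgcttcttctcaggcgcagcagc

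The downstream window holds 17 CpG dinucleotides and the upstream window 8. One probe set covers the gene, so transcripts from the 2 regions were not measured apart. CAGCTG, which reads the same on both strands, occurs in 16.3% of 32817 RefSeq promoter windows of the same length, and in 2 of the 18 windows of 9 network genes, 1 of Mest and 1 of Slc38a4.

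Igf2r (chr17:12682406-12769706), the receptor that takes up IGF2 and sends it for degradation and that is maternally expressed in the mouse, read 10.06, 9.96 and 10.07 on the H19 siRNA arrays, against 9.96, 9.94 and 9.92 on the control siRNA arrays. The groups were barely apart, with the second H19 siRNA array just above the first control array. The difference was 0.091 (SE 0.041, 95% interval -0.0061 to 0.19), with a limma unadjusted p of 0.0621. Its adjusted p lay between 0.245 and 0.761 over 16 alternatives.

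Dlk1 (chr12:109452485-109463336), a transmembrane protein with EGF-like repeats that inhibits adipocyte differentiation and is paternally expressed, read 7.98, 8.13 and 7.99 with H19 siRNA, against 7.82, 7.85 and 7.93 with control siRNA. The second H19 siRNA array was the highest, and the lowest of the 3 lay just above the highest control array. The difference was 0.16 (SE 0.054, 95% interval 0.034 to 0.29), or 12.0% higher, with a limma adjusted p of 0.363. Without the second H19 siRNA array, which correlated least with the other arrays, the difference was 0.11.

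Grb10 and Gnas act inside the cell below receptors. Grb10 (chr11:11930499-12037428), an adaptor that binds the insulin and IGF1 receptors and dampens their signal, read 5.47, 5.53 and 5.47 with H19 siRNA, against 5.44, 5.55 and 5.39 with control siRNA. The range of the control siRNA arrays was wider and held all 3 H19 siRNA values. Between the groups the difference was 0.028 (95% interval -0.090 to 0.15). Gnas (chr2:174284320-174346744) encodes the stimulatory G protein alpha subunit that raises cyclic AMP. The probe set shared with Gnasas1 read 11.31, 11.30 and 11.31 with H19 siRNA, against 11.24, 11.25 and 11.24 with control siRNA. These were the tightest groups of the 10 (SD 0.0088 and 0.0059, n = 3 each) and did not overlap. The difference of 0.063 had a limma SE of 0.031, a 95% interval from -0.0099 to 0.14 and an adjusted p of 0.532, since limma draws each variance towards a value common to all probe sets.

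Cdkn1c (chr7:143458339-143461059), the CDK inhibitor p57 that is maternally expressed and takes part in the cell cycle exit of myoblasts, read 9.91, 9.93 and 9.95 on the H19 siRNA arrays, against 9.88, 9.80 and 9.85 on the control siRNA arrays. Every H19 siRNA array lay above the control arrays. The difference was 0.091 (SE 0.036, 95% interval 0.0048 to 0.18), with a limma adjusted p of 0.445.

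Plagl1 (chr10:13090832-13131694), a zinc finger factor also called ZAC1 that activates other imprinted genes, H19 among them, read 6.49, 6.43 and 6.49 with H19 siRNA, against 6.36, 6.40 and 6.41 with control siRNA. The groups did not overlap, and the difference of 0.083 (SE 0.036) had a 95% interval from -0.0012 to 0.17 and a limma adjusted p of 0.478. Peg3 (chr7:6703892-6730462), a large zinc finger protein that is paternally expressed and found in muscle progenitors, was the only one of the 10 with a negative difference. It read 11.02, 10.95 and 11.05 with H19 siRNA, against 11.04, 11.05 and 11.01 with control siRNA, and the groups overlapped. The difference was -0.023 (95% interval -0.11 to 0.067), and without the second H19 siRNA array it was 0.0034.

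The Peg3 promoter is shown because, of the 18 windows searched in 9 network genes, it alone holds GGGGCCCC, the consensus that PLAGL1 binds, which reads the same on both strands. It lies at chr7:6730370-6730669 of GRCm38.p6, on the minus strand, with the motif in capitals. Of 32817 windows of this length 1.07% hold these letters. A match is a string of letters and not a measured site.
Peg3: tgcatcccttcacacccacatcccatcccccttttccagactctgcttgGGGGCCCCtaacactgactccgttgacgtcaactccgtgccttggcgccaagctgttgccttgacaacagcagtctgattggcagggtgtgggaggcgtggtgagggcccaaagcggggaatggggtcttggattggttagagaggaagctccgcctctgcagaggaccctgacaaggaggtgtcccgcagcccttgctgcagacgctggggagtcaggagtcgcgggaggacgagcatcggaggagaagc

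Meg3 (chr12:109540996-109571729), a maternally expressed noncoding RNA of the Dlk1 cluster that acts as a growth suppressor, had the widest spread. It read 5.54, 5.83 and 5.51 on the H19 siRNA arrays, against 5.65, 5.51 and 5.66 on the control siRNA arrays. The second H19 siRNA array was high and the other 2 lay at the lower end of the control range. The difference of 0.019 had a 95% interval from -0.20 to 0.23, and without the second H19 siRNA array it was -0.082. Meg3, Grb10 and Slc38a4 had levels under the 30th percentile of annotated probe sets, and all 3 had overlapping groups. For such dim probe sets small differences may not be detectable.

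**Figure D2:**
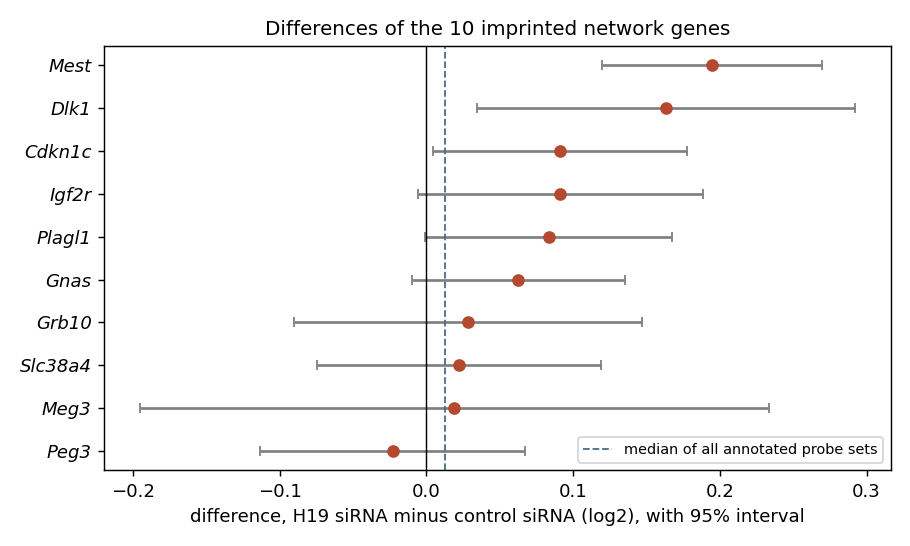
Difference between H19 siRNA and control siRNA for each network gene on the log2 scale (horizontal axis), with the 95% interval of the limma fit (n = 3 arrays per group); the dashed line is the median of all annotated probe sets, 0.013. The intervals of Mest, Dlk1 and Cdkn1c lie above 0, before any adjustment for the number of probe sets tested.

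**Figure D3:**
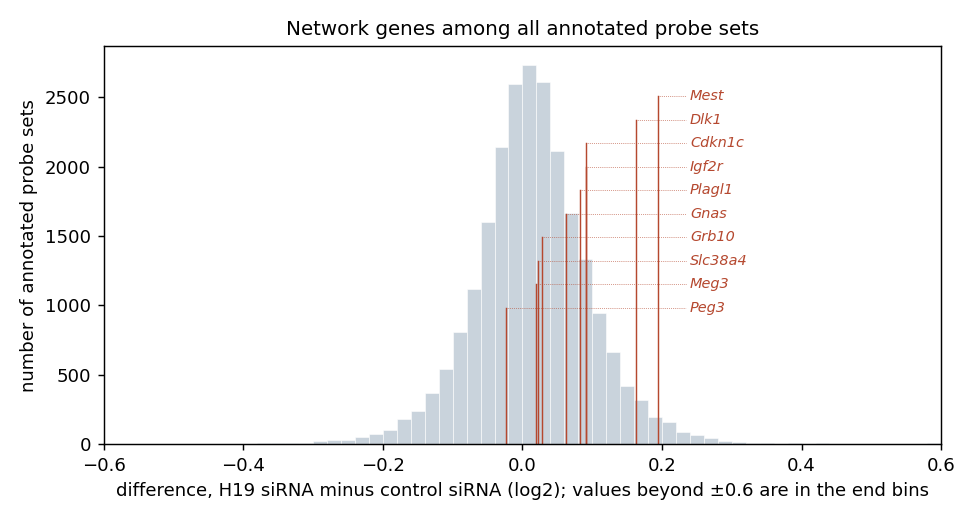
Number of annotated probe sets (vertical axis) by their difference between H19 siRNA and control siRNA (log2, horizontal axis), with a red line at each network gene. Mest at 0.19 and Dlk1 at 0.16 lie in the upper shoulder, and Meg3, Slc38a4, Grb10 and Peg3 lie near the centre.

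The arrays themselves bear on these small gaps. Pearson's r between arrays over all probe sets lay between 0.996 and 0.998 for the 15 pairs, and the medians between 6.73 and 6.78. The second H19 siRNA array had the highest median (6.78) and the lowest array weight (0.41). After each array was centred on its median, 9 of the 10 network genes still had a positive difference and 5 still had groups that did not overlap, all higher with H19 siRNA, where 7.95% of annotated probe sets did in that direction. Their median was then 0.062, against 0.0020 over all annotated probe sets. Of 8 skeletal muscle markers 6 had positive differences, the widest those of Tnnt2 (0.26), Myod1 (0.23) and Myog (0.22). Myh3 differed by -0.029 and Actc1 by -0.0064. The mean log2 level of the 8 was between 11.49 and 11.54 on the H19 siRNA arrays, against 11.39 and 11.40 on the control siRNA arrays. Without centring, H19 siRNA was higher with groups apart for 5 of the 8. This held for 10.4% of annotated probe sets and for 12.3% of those above the median level. Only 1 marker, Tnnt2, passed the threshold (limma adjusted p = 0.0465), where 0.184% of annotated probe sets passed. The Tnnt2 call was lost in 9 of 16 alternatives, among them each of the 6 that left out 1 array, with adjusted p-values up to 0.358 and differences from 0.25 to 0.27. The part of this muscle difference in the values of the network genes was not tested. For 4 markers each of endothelium, leukocytes, adipocytes, epithelium and neurons 0 passed in limma. The 4 adipocyte markers had differences from 0.086 to 0.22 at dim levels, with array means between 5.76 and 5.95 for H19 siRNA and between 5.70 and 5.76 for control siRNA. Cd68, a macrophage marker among the leukocyte genes, had the smallest p of these 20 and differed by -0.19 with all H19 siRNA arrays lower (limma unadjusted p = 0.00978, adjusted p = 0.290). In bulk RNA, fewer cells of a kind and less RNA per cell cannot be told apart.

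Neighbours in the same chromosomal clusters were read next, since imprinted genes lie in groups that share control elements. Of 34 measured neighbours 0 passed in limma, and the median was 0.036. A positive difference was found for 25 (73.5%), against 57.5% of annotated probe sets. Unadjusted, 3 were higher and 2 lower at a p under 0.05, where 10.7% of annotated probe sets passed in either direction. The groups did not overlap for 8 neighbours upward (23.5%) and 2 downward, against 10.4% and 7.10% of annotated probe sets.

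At the Mest cluster the neighbours had smaller differences than Mest. The Mir335 probe set, which lies within the Mest gene, read 5.30, 5.31 and 5.32 with H19 siRNA, against 5.26, 5.15 and 5.24 with control siRNA. All 3 H19 siRNA arrays were higher, with a difference of 0.091 (95% interval -0.0050 to 0.19) at a dim level. That level, at the 20.8 percentile, is not shown to be above background, so no direction or size is read from this probe set. Copg2, a coatomer subunit gene that overlaps the end of Mest on the opposite strand, differed by 0.056 with groups apart, and all 4 neighbours had differences between 0.023 and 0.080. Mir335 and Copg2 were picked out after their values were seen.

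In the Cdkn1c cluster, Phlda2, a maternally expressed gene that restrains placental growth, read 6.51, 6.77 and 6.61 with H19 siRNA, against 6.37, 6.48 and 6.32 with control siRNA. The groups did not overlap, and the difference of 0.24 had a 95% interval from 0.061 to 0.42 and a limma adjusted p of 0.337. The other 5 neighbours there differed by at most 0.082 in size. In the Igf2r cluster, Airn, the paternal noncoding RNA that silences Igf2r in cis, read 8.83, 8.63 and 8.76 with H19 siRNA, against 8.63, 8.62 and 8.52 with control siRNA. Its difference of 0.15 (limma adjusted p = 0.438) ran in the same direction as that of Igf2r, and Slc22a2, an organic cation transporter gene, differed by 0.11. Airn overlaps Igf2r on the opposite strand, and probe sequences that would show which strand is read were not used here.

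Peg3 and its 2 measured neighbours had negative differences. Zim1, a maternally expressed zinc finger gene beside Peg3, read 8.19, 8.07 and 8.17 with H19 siRNA, against 8.38, 8.28 and 8.24 with control siRNA, with all H19 siRNA arrays lower. It differed by -0.15 (95% interval -0.28 to -0.029, limma adjusted p = 0.374), and Usp29, named here after its value was seen, by -0.039. Near Plagl1, the splicing factor gene Sf3b5 differed by -0.13 with groups apart (limma adjusted p = 0.418), while Plagl1 itself was at 0.083.

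**Figure D4:**
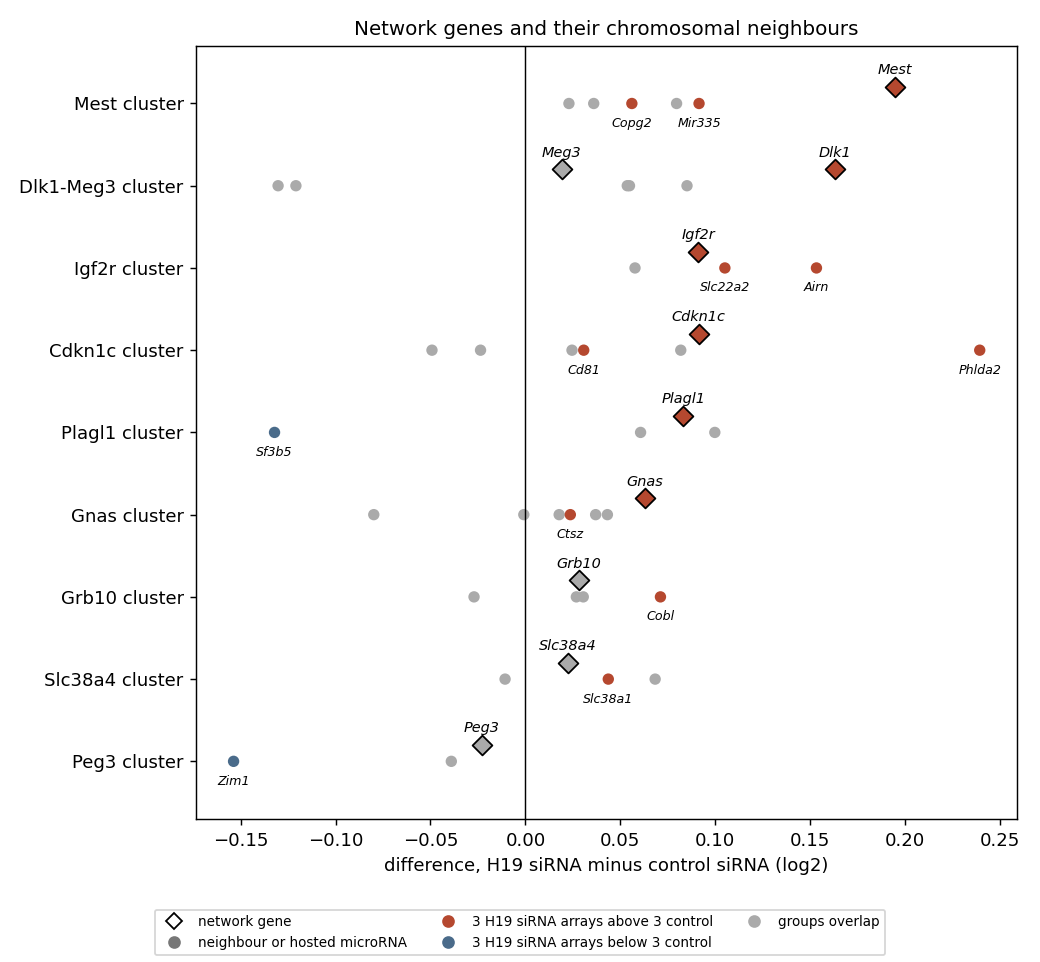
Differences between H19 siRNA and control siRNA (log2, horizontal axis) for the network genes (diamonds) and their measured neighbours or hosted microRNAs (circles), by chromosomal cluster; red and blue mark genes whose 3 H19 siRNA arrays all lay above or below the 3 control arrays, and grey marks overlap. The microRNAs of the Dlk1 and Meg3 cluster are not drawn, and circles are named where groups did not overlap; Phlda2 at 0.24 and Zim1 at -0.15 are the outermost.

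The Dlk1 and Meg3 cluster also carries a long row of microRNAs made from the maternal chromosome together with Meg3 and Rian. Of 38 measured microRNA genes of this cluster 0 passed in limma, and the median was -0.0073. A positive difference was found for 18 (47.4%), against 57.5% of annotated probe sets. Unadjusted, 2 were higher and 2 lower at a limma p under 0.05, where 6.39% and 4.26% of annotated probe sets were. Mir370 had the smallest p, and its mature forms are given with the seed in capitals (GRCm38.p6, chromosome 12, plus strand).
miR-370-3p: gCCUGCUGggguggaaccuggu
miR-370-5p: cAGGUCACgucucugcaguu

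The Mir370 probe set read 5.89, 5.86 and 5.85 with H19 siRNA, against 5.67, 5.67 and 5.72 with control siRNA. Whether it reads the mature forms shown was not tested. Every H19 siRNA array was higher, by 0.18 on average (95% interval 0.10 to 0.26), and the limma adjusted p was 0.143. Mir485 differed by 0.18, Mir381 by -0.11 and Mir541 by -0.099, with limma adjusted p-values from 0.366 to 0.419. The probe sets of Mir381 and Mir541 lay at the 1.91 and 3.37 percentiles of level, and those of Mir485 and Mir370 at 17.0 and 29.0. None is shown to be above background, so no direction is read from any of them. Rian, another maternal noncoding RNA of the cluster, differed by -0.12 and Rtl1, the paternal retrotransposon-derived gene of the cluster, by -0.13, both with overlapping groups. These 2 genes were named after their values were seen.

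A wider list of other imprinted genes gave the setting for the network. Of 52 measured genes 1 passed, where 0.184% of annotated probe sets did. It was Dcn, the matrix proteoglycan decorin that is maternally expressed in the placenta, which fell by 0.50 (SE 0.033, limma adjusted p = 0.00818). The Dcn call was lost in 6 of 16 alternatives, namely the replicate block (adjusted p = 0.155) and each array left out except the second H19 siRNA array (adjusted p from 0.0641 to 0.0865), while the difference stayed between -0.51 and -0.49. With the median filter 2 of the 26 list genes kept passed, both lower, where 2.31% of the probe sets tested did. With the intensity trend and robust variance 2 of the 52 passed, both lower, where 1.74% did. In all 31 of the 52 (59.6%) had a positive difference, against 57.5% of annotated probe sets, and their median was 0.021. The groups did not overlap for 9 upward (17.3%) and 5 downward, against 10.4% and 7.10% of annotated probe sets. At an unadjusted limma p under 0.05, 5 were higher and 6 lower, where 6.39% and 4.26% of annotated probe sets were. The parent of origin is that of the lists used and was not measured in these cells. Among the 20 listed as paternally expressed the smallest p-values were those of Sgce (epsilon-sarcoglycan) at -0.12 and Airn at 0.15. Next came Sfmbt2 (a Polycomb-type protein) at -0.086 and Peg10 at -0.062. Among the 32 listed as maternally expressed, the smallest p-value after Dcn was that of Atp10a (a lipid flippase) at -0.17. Tfpi2 (a protease inhibitor) at 0.16 and Phlda2 at 0.24 followed. Apart from Dcn their limma adjusted p-values were between 0.175 and 0.602. So the direction was mixed in the wider list, and whether the 10 network genes differ from it was not tested.

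Since Igf2r and Grb10 act in IGF and insulin signalling, 18 measured genes of that pathway were read beside them. In limma 0 passed, and the median was 0.039. A positive difference was found for 13 (72.2%), against 57.5% of annotated probe sets. At an unadjusted limma p under 0.05, 4 were higher and 1 lower, where 6.39% and 4.26% of annotated probe sets were. The leading genes were secreted IGF-binding proteins. Igfbp3 read 10.33, 10.37 and 10.35 with H19 siRNA, against 10.14, 10.14 and 10.17 with control siRNA. It differed by 0.20 (SE 0.032, limma adjusted p = 0.102), with groups far apart for their spread. Igfbp5, which is made in quantity by differentiating myoblasts, differed by 0.16 and Igfbp2 by 0.15, while Igfbp4 differed by -0.25, each with groups that did not overlap and limma adjusted p-values from 0.192 to 0.202.

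**Figure D5:**
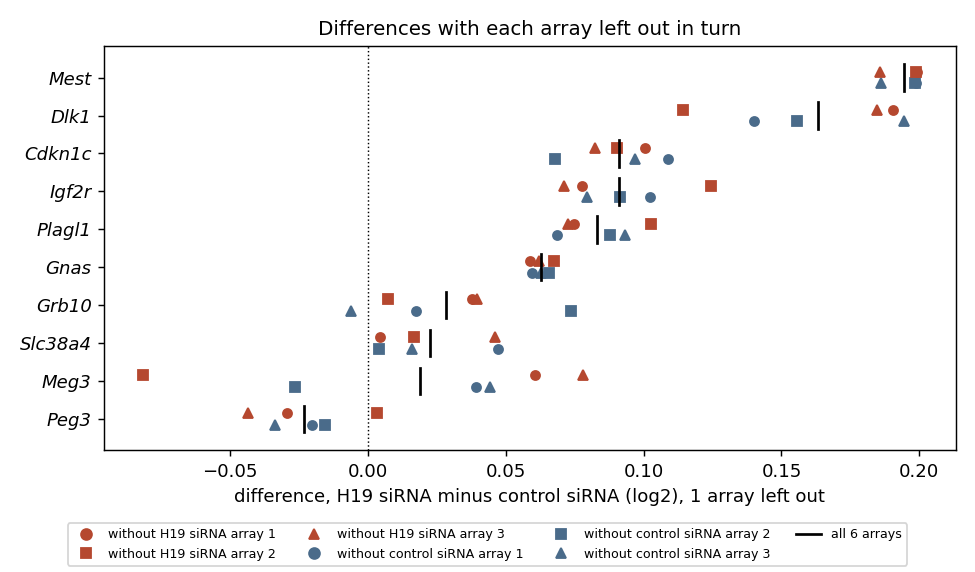
Difference between H19 siRNA and control siRNA (log2, horizontal axis) of each network gene when 1 of the 6 arrays was left out, by the array left out, with a black bar at the value from all 6. Mest, Dlk1, Cdkn1c, Igf2r, Plagl1 and Gnas stay above 0 in each case, and the sign of Grb10, Meg3 and Peg3 turns with single arrays.

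How far each gene rests on 1 array varied. With each array left out in turn, the difference of Mest lay between 0.19 and 0.20, that of Gnas between 0.059 and 0.067 and that of Plagl1 between 0.069 and 0.10. Cdkn1c lay between 0.068 and 0.11, Igf2r between 0.071 and 0.12 and Dlk1 between 0.11 and 0.19. Grb10 was at -0.0062 without the third control siRNA array, and Meg3 was at -0.026 without the second. With 3 arrays on each side, the smallest two-sided p that an exact permutation test can give is 0.1. Groups without overlap always give this value, so for the 6 genes it only restates the lack of overlap.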

How the data were processed

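On Affymetrix whole-transcript arrays, the authors deposited 1 log2 value for each probe set. Per the submitters' processing notes they used RMA and Expression Console. RMA subtracts background, applies quantile normalisation and combines the probes of a set. The software version is not given in the sources used here. Scanner intensities were not used here, and the number of arrays limits the precision.

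Gene symbols came from the platform annotation held by GEO, which gave 21789 probe sets 1 symbol and 1621 several, and did not list 12146. H19 siRNA was compared with control siRNA with limma 3.58.1 (lmFit and eBayes, R 4.3.3), two-sided, over all 23410 annotated probe sets of the 6 arrays, with no covariate and Benjamini-Hochberg adjustment. This keeps all probe sets of a gene and needs no filter. Differences are H19 siRNA minus control siRNA. The fit was tested on simulated data with planted differences larger than those of the network genes. Recovery of differences as small as theirs was not tested.

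The members and lists were chosen with earlier results of these data known. Named genes are the 10 members, the target, Igf2, and of each list the genes called and up to 4 with the smallest p. A list gene is represented by its single-symbol probe set with the highest mean. Genes without a single-symbol probe set, H19 among them, were counted as not measured. Of 63 other imprinted genes listed 52 were measured, of 42 neighbours 34, of 46 microRNA genes 41 and of 19 IGF and insulin genes 18. Promoter and microRNA sequences are from RefSeq tables for GRCm38.p6, which hold windows for 9 members. Alternatives changed the probe sets fitted, filters on dim probe sets, variance model, array weights, scaling, replicate block and arrays included.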

Additional observations from a re-analysis of the deposited data

How the results depend on the processing

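Of the 10 network genes 0 passed in the fit over all annotated probe sets, and 1 (Mest) passed with an intensity trend and robust variance, with the filter at the median and with the filter at the 30th percentile. Differences of Mest, Dlk1, Cdkn1c, Igf2r, Plagl1 and Gnas were positive in every alternative that kept the gene. A second quantile normalization put Grb10 at -0.0077, Slc38a4 at -0.0097 and Meg3 at -0.015, and array weights put Meg3 at -0.039. The median of the members was 0.073, and it was 0.062 with median centring and 0.051 with a second quantile normalization. With either filter it was 0.091, but over fewer genes. The filter at the 30th percentile kept 7 members, without Meg3, Grb10 and Slc38a4. The filter at the median kept 6, without Plagl1 as well. The medians of the other imprinted genes and of the neighbours were 0.011 and 0.026 with median centring, and 0.010 and 0.026 with a second quantile normalization. The target passed in all 16 alternatives, between -1.91 and -1.86.

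The count of 43 annotated probe sets was 408 when robust variances and an intensity trend were used together, 270 and 102 with filters at the median and 30th percentile, 72 with array weights and 11 over all rows of the table. With the replicate number as a block it was 1, and 0 members passed. Deviations of same-numbered arrays correlated at -0.020, -0.14 and -0.15, and no array correlated best with its own number, so the numbers were not taken as pairs. With 1 array left out the count ran from 1 to 13, the members called stayed at 0, and the medians ran from 0.064 to 0.079 for members, 0.0065 to 0.029 for other imprinted genes and 0.031 to 0.036 for neighbours. Fewer arrays also leave fewer degrees of freedom. No detection calls were used, so dim probe sets were not marked as undetected.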
